A study of Arabidopsis thaliana with 74 samples.

Results

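The genes described here are 6 of the 32833 counted, all on chromosome 3 and named by the study as candidates for leaf area heterosis. They are CLSY4 (AT3G24340), DHAD (AT3G23940), CHUP1 (AT3G25690), CYP71B26 (AT3G26290), CKL10 (AT3G23340) and AT3G22260. The study chose them because the divergence of their expression from the mid-parent, a value computed from these same libraries, varied between families with the paternal epigenotype of a leaf area locus on chromosome 3 or with DNA methylation nearby. Their divergence and their relation between father and hybrid are therefore given below as descriptions, without a test. All 6 passed the filter on low counts, which kept 19383 genes with at least 1 CPM (a count expressed relative to the size of its library) in at least 2 libraries.

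RNA was sequenced from pooled rosettes of Arabidopsis thaliana at 27 days after sowing, 1 library per line. The fathers were 36 ddm1-2-derived epiRILs, inbred lines in a Columbia background that carry stretches of hypomethylated DNA left by a past ddm1-2 mutation and otherwise share their DNA sequence almost entirely. The mothers were msCol, male-sterile Columbia plants with an ms1 mutation that was introgressed from Landsberg, of which 2 libraries (12 and 16) were sequenced. The 36 epiHybrids were the F1 of these crosses, and an epiHybrid and its father form a family; families were picked by the study so that the leaf area of the epiHybrid was far above, far below or no different from the mean of its parents. Plants within a line were not sequenced separately, so SD is given over families. For epiHybrids against fathers, p-values rest on how the difference within a family varied from family to family. Against msCol, p-values rest on the spread among libraries within groups, pooled over all 74.

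The candidates act in separate parts of leaf biology. CLASSY proteins such as CLSY4 are chromatin remodeller-like factors that bring RNA polymerase IV to its target loci, where it starts the small RNAs of RNA-directed DNA methylation. DHAD is the dihydroxyacid dehydratase of the plastid, an enzyme shared by the synthesis of isoleucine, valine and leucine. CHUP1 sits on the outer chloroplast envelope and ties chloroplasts to actin filaments as they move in response to light. CYP71B26 belongs to the CYP71B cytochromes, a monooxygenase group with many neighbouring members on chromosome 3, and CKL10 belongs to the casein kinase 1-like protein kinases. AT3G22260 is annotated only as a cysteine proteinase superfamily protein, and the family list used below holds it as OTU11, an OTU-type cysteine protease.

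All 6 genes lie on chromosome 3 within 1.764 Mb, among 523 listed genes, of which 294 were kept (TAIR10.1 positions, with exons merged over transcripts). AT3G22260 lies at chr3:7870826-7873597 on the plus strand with 9 exons. CKL10 follows at chr3:8350803-8354021 on the plus strand with 14 exons. DHAD is found at chr3:8648669-8652605 on the plus strand, also with 14 exons. CLSY4 occupies chr3:8831935-8835829 on the minus strand with 3 exons. CHUP1 occupies chr3:9352444-9357953 on the plus strand with 10 exons. CYP71B26 ends the interval at chr3:9632608-9634822 on the minus strand with 3 exons. No annotated gene overlaps any of them, which bears on the counts because the use of strand in counting is not stated.

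Sequence shared with other genes could split reads, so the exonic 50-mers of each gene were searched in the whole genome. None of those of AT3G22260, CKL10, DHAD, CLSY4 or CHUP1 occurred elsewhere. In CYP71B26, 6 of 1901 (0.316%) did, all in CYP71B33 (AT3G26295), a transcribed pseudogene 1717 bases away. It is not among the genes counted, so it has no counts of its own. Both copies are shown because they are the one place where the search found exonic sequence of a candidate elsewhere. It took exact matches within single exons, so reads across exon junctions or with mismatches were not covered. Capitals mark the 55 bases that the search found in a coding exon of CYP71B26. Lower case marks the 20 bases on each side, of which 30 of 40 are equal. The identical run goes on for 6 bases past the capitals, 61 in all.
CYP71B26: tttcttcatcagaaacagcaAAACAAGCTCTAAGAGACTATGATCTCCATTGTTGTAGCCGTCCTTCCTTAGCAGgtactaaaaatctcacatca
CYP71B33: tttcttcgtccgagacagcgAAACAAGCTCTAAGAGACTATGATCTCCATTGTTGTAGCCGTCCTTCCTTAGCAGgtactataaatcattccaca
Both stretches are on the minus strand, at chr3:9634113-9634207 and chr3:9638022-9638116 with their flanks.

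Library totals lay between 38.1 and 42.2 M counts, and 1 count was worth 0.0221 to 0.0330 CPM after TMM normalisation. The 5 rosette leaf markers summed to between 17104 and 72366 CPM over families, while the root markers EXPA7 and COBL9 were at 0 in 73 and 40 of 74 libraries. A further root marker, PYK10, was at 0 in none and ran from 5.35 to 33.5 CPM. The floral markers AP3, PI, AG and SEP3 had medians of 2.49, 2.84, 2.68 and 4.67 CPM. In earlier work on these data, epiHybrids 340 and 368 were set apart from the rest, a step that the study does not describe. Their families were left out in some alternatives, for which no criterion is given here. EpiHybrid 340 had the lowest TMM factor, 0.756, and that of epiHybrid 368 was 0.963. Libraries also differed in a length slope, which is the change in expression deviation per doubling of a gene's exon length within a library, and which ran from -0.36 to 0.20 in epiHybrids, from -0.32 to 0.13 in epiRILs, and was 0.06 and 0.09 in msCol. In pooled rosettes, a lower share of a cell type and less RNA per cell cannot be told apart.

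Per kilobase of exon, the candidates spanned a wide range of levels. CHUP1 was highest with a median of 70.2 CPM per kb over the 74 libraries, followed by CYP71B26 with 43.6, DHAD with 20.5, CKL10 with 9.83, AT3G22260 with 7.24 and CLSY4 with 0.129. CHUP1 exceeded CYP71B26 in 65 libraries, CYP71B26 exceeded DHAD in 72, DHAD exceeded CKL10 in 73, CKL10 exceeded AT3G22260 in 72, and AT3G22260 exceeded CLSY4 in all 74. The ranges over libraries were 22.1 to 106 for CHUP1, 30.4 to 70.4 for CYP71B26, 9.87 to 44.2 for DHAD, 7.58 to 12.0 for CKL10, 4.32 to 9.93 for AT3G22260 and 0 to 0.373 for CLSY4. Each pair of neighbours in this order overlapped except AT3G22260 and CLSY4.

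**Figure D1:**
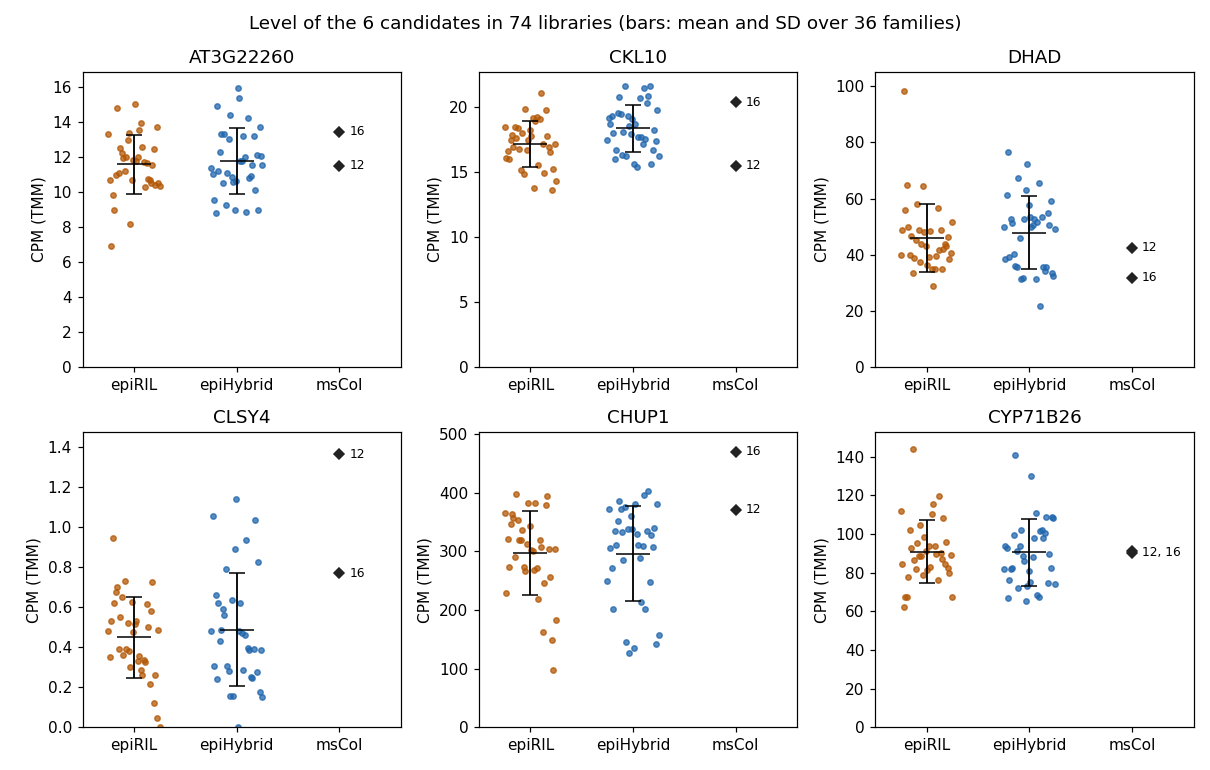
TMM-normalised CPM of each candidate (y axis, from 0) in 36 epiRILs, 36 epiHybrids and the msCol libraries 12 and 16; points are libraries, and bars give the mean and SD over families. CLSY4 and CHUP1 lie below both msCol libraries in most families, while the epiRIL and epiHybrid clouds of every candidate overlap.

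The 3 comparisons below were tested over all genes kept, none of which is the between-family variation that selected the candidates. No candidate was called in any of them at an adjusted p under 0.05 with the quasi-likelihood test of edgeR. The background was 1.31% of genes called between epiHybrids and their fathers, 2.75% between epiRILs and msCol, and 1.83% between epiHybrids and msCol. At an unadjusted p under 0.05 there was 1 candidate in each comparison, CKL10 in the first and CLSY4 in the other two, beside 9.92%, 14.4% and 13.7% of all genes. DESeq2 called CKL10 in the first and none in the other two, beside 1.72%, 4.05% and 3.2% of all genes. The comparisons with msCol share its 2 libraries, which limits what they can detect. Among the 294 genes kept in the interval, 0, 9 and 9 were called in the 3 comparisons, 3.06% in each comparison with msCol.

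CLSY4 had the lowest level of the candidates, and most families lay below msCol. The msCol libraries held 1.36 CPM (54 counts) and 0.769 CPM (30 counts). In the epiRILs the lowest level was 0 (epiRIL 579), the median 0.479 and the highest 0.947 CPM (epiRIL 54). In the epiHybrids the lowest was 0 (epiHybrid 340), the median 0.448 and the highest 1.14 CPM (epiHybrid 334). The counts of 0 allow up to 0.0764 CPM in epiRIL 579 and 0.0989 CPM in epiHybrid 340, taking 3 counts as the limit and covering counting error only. It lay below both msCol libraries in 35 of 36 epiRILs and 29 of 36 epiHybrids and above both in none. It reached 1 CPM in 4 libraries, msCol 12 and the epiHybrids 334, 41 and 503, and was kept through these.

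The fitted difference of CLSY4 from msCol was -1.24 ± 0.55 on the log2 scale (SE) in epiRILs, with an adjusted p of 0.256 by edgeR, and -1.12 ± 0.55 in epiHybrids (adjusted p = 0.353). Without msCol 12 these differences were -0.77 and -0.65, and without msCol 16 they were -1.59 and -1.47. Their size thus depends on which msCol library is used. With the length slope as a covariate they were -1.03 ± 0.49 and -0.94 ± 0.49 (edgeR adjusted p = 0.231 and 0.315). Between epiHybrids and their fathers CLSY4 differed by 0.08 ± 0.18 (adjusted p = 0.921), and the epiHybrid was the higher of the pair in 18 of 36 families. Its counts per library ran from 0 to 54.

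The divergence of CLSY4 from the mid-parent, in percent of the mean of father and msCol, had a median of -41.6 and ran from -100 in family 340 to 49.0 in family 41. It was negative in 29 families, and its median was -27.1 without msCol 12 and -51.3 without msCol 16. Its median absolute divergence, 48.6%, was at percentile 97.2 of all genes kept, for which the median was 13.3%. Counting error enters this value, since CLSY4 had 0 to 54 counts per library and reached 1 CPM in only 4. The divergence also had r = 0.580 (rho = 0.670) with the length slope of the epiHybrid. How much of the divergence either makes up was not tested. In 18 families the epiHybrid was below both parents and in 17 between them. The epiHybrid followed its father weakly (r = 0.225, rho = 0.224, slope 0.31 ± 0.23, n = 36 families), and r was 0.131 without the fathers 579 and 54. The same r had a median of 0.263 over all genes kept.

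Of the 15 other genes of RNA-directed DNA methylation listed, 15 were kept and none was called in any comparison. Their median difference from msCol was -0.29 in epiRILs and -0.27 in epiHybrids, beside medians over all genes of 0.02 and 0.03. These medians came from fits without the length slope as a covariate. That slope was 0.06 and 0.09 in the msCol libraries and averaged 0.0033 in epiRILs and -0.0075 in epiHybrids. The nearest relative listed, CLSY3 (CHR31 in RefSeq), showed 3.61 and 2.46 CPM in msCol, 1.47 ± 0.61 in epiRILs and 1.71 ± 0.78 in epiHybrids (SD, n = 36), with fitted differences of -1.04 (adjusted p = 0.218) and -0.83 (adjusted p = 0.416). CLSY4 and its list varied together across libraries: r with CLSY4 was above 0 for 12 of 15 genes in epiRILs (median 0.449) and for 14 of 15 in epiHybrids (median 0.629), beside 46.5% and 44.0% of all genes. With the length slope of each library removed the medians were 0.107 and 0.244. These points share libraries and depth, and no p is given.

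DHAD was above the mean of msCol in 30 of 36 epiRILs and varied widely. The msCol libraries held 42.5 and 31.8 CPM. In the epiRILs the lowest level was 28.8 (epiRIL 393), the median 43.4 and the highest 98.2 CPM (epiRIL 50), the next highest being 64.7 in epiRIL 79. In the epiHybrids the lowest was 21.9 (epiHybrid 426), the median 50.2 and the highest 76.8 CPM (epiHybrid 54). It exceeded both msCol libraries in 20 epiRILs and 22 epiHybrids, so the groups overlap. The difference from msCol was 0.31 ± 0.27 in epiRILs (adjusted p = 0.665) and 0.36 ± 0.28 in epiHybrids (adjusted p = 0.614); without msCol 16 it was 0.12 and 0.17, and without msCol 12 it was 0.53 and 0.59. Between epiHybrids and fathers it was 0.04 ± 0.07 (adjusted p = 0.885).

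The divergence of DHAD had a median of 19.5% (27.4% without msCol 12 and 12.5% without msCol 16) and ran from -53.3% in family 426 to 70.8% in family 424. In family 426 the father held 56.8 CPM and the epiHybrid 21.9. In family 424 the father held 39.6 CPM and the epiHybrid 65.5. The divergence was positive in 21 families and negative in 15, its median lay at percentile 96.4 of all genes, and the epiHybrid was above both parents in 18 families and below both in 9. The father said little about the epiHybrid (r = 0.253, rho = 0.218, slope 0.27 ± 0.18), near the median of all genes. Family 50, whose father stood apart by 0.483 of the fathers' range, had an epiHybrid at 61.1 CPM, the sixth highest.

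**Figure D2:**
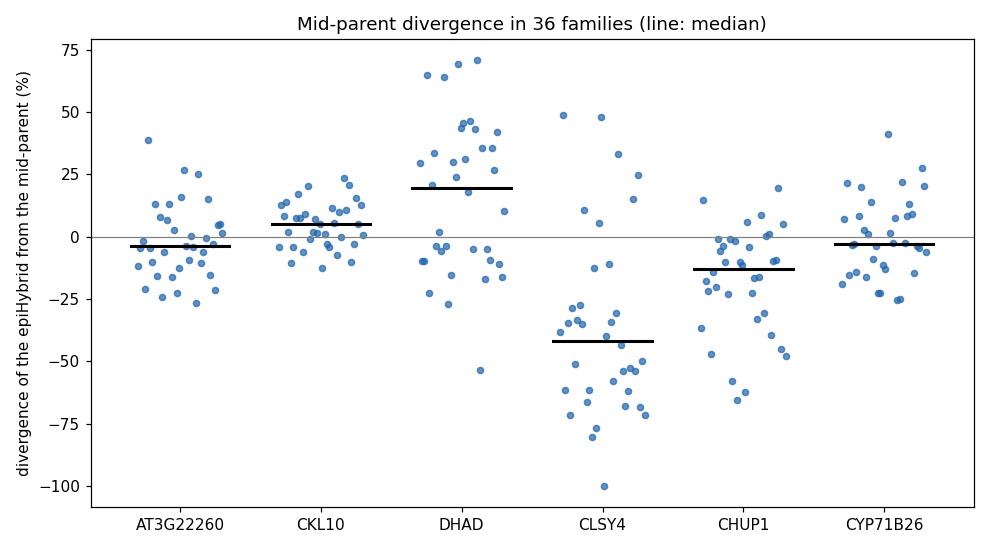
Percent divergence of each epiHybrid from the mid-parent, which averages the father with msCol (y axis), for each candidate; points are the 36 families and lines are medians. Medians run from -41.6% for CLSY4 to 19.5% for DHAD, and the spread is narrowest for CKL10.

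Of 14 other genes of branched-chain amino acid synthesis, all were kept, and 1 was called lower than msCol in each comparison with it. That gene, AT2G31810, annotated as a small subunit of acetolactate synthase, held 82.6 and 116 CPM in msCol, 75.7 ± 5.77 in epiRILs and 75.2 ± 8.56 in epiHybrids (SD, n = 36). Its differences were -0.39 ± 0.10 (adjusted p = 0.0226, edgeR) and -0.40 ± 0.10 (adjusted p = 0.0257). Without msCol 16 they were -0.13 and -0.13, with adjusted p of 0.934 and 0.931, so these calls rest on that library. In epiHybrids the call was also lost when the epiRILs were left out of the fit (adjusted p = 0.135). The list's median difference from msCol was 0.05 in epiRILs and 0.07 in epiHybrids.

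Several enzymes of the pathway varied with DHAD from library to library. Those named next were picked after their values were seen. AT3G58610, the ketol-acid reductoisomerase that acts before DHAD, had r = 0.785 with it in epiRILs and 0.769 in epiHybrids, with 1.78% and 2.53% of genes higher. IMD3, an isopropylmalate dehydrogenase of leucine synthesis, had r = 0.847 and 0.649. OMR1, the threonine deaminase of isoleucine synthesis, had r = 0.709 and 0.675. BCAT2, a branched-chain aminotransferase, ran opposite to DHAD with r = -0.746 and -0.781. Over the list, r was above 0 for 11 of 14 genes in epiRILs and 9 of 14 in epiHybrids, beside 48.8% and 47.6% of all genes.

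CHUP1 was the most abundant candidate and lay below msCol in most families. The msCol libraries held 371 and 470 CPM. In the epiRILs the lowest level was 98.4 (epiRIL 568), the median 306 and the highest 399 CPM (epiRIL 158). In the epiHybrids the lowest was 127 (epiHybrid 310), the median 319 and the highest 403 CPM (epiHybrid 467). It was below both msCol libraries in 31 epiRILs and 28 epiHybrids and above both in none. The difference from msCol was -0.50 ± 0.29 in epiRILs (adjusted p = 0.439) and -0.50 ± 0.29 in epiHybrids (adjusted p = 0.454). Without msCol 16 these differences were -0.32 and -0.32, and without msCol 12 they were -0.66 and -0.67. With the length slope as a covariate it was -0.31 ± 0.11 (adjusted p = 0.0979) and -0.30 ± 0.11 (adjusted p = 0.136).

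CHUP1 followed the length slope of the libraries closely. Its r with that slope was 0.911 over epiRILs and 0.962 over epiHybrids, at percentiles 96.0 and 98.6 of the absolute r of all genes, for which the medians were 0.388 and 0.421. CHUP1 has 4447 exonic bases, the most of the 6, and enters the slope itself as 1 of all genes. For CLSY4 this r was 0.482 and 0.633, for CKL10 0.465 and 0.355, and for DHAD 0.108 and -0.0778. AT3G22260 gave -0.0432 and -0.209, and CYP71B26 gave 0.0778 and 0.332. The part of the length slope in the levels of CHUP1 was not tested beyond the covariate.

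**Figure D3:**
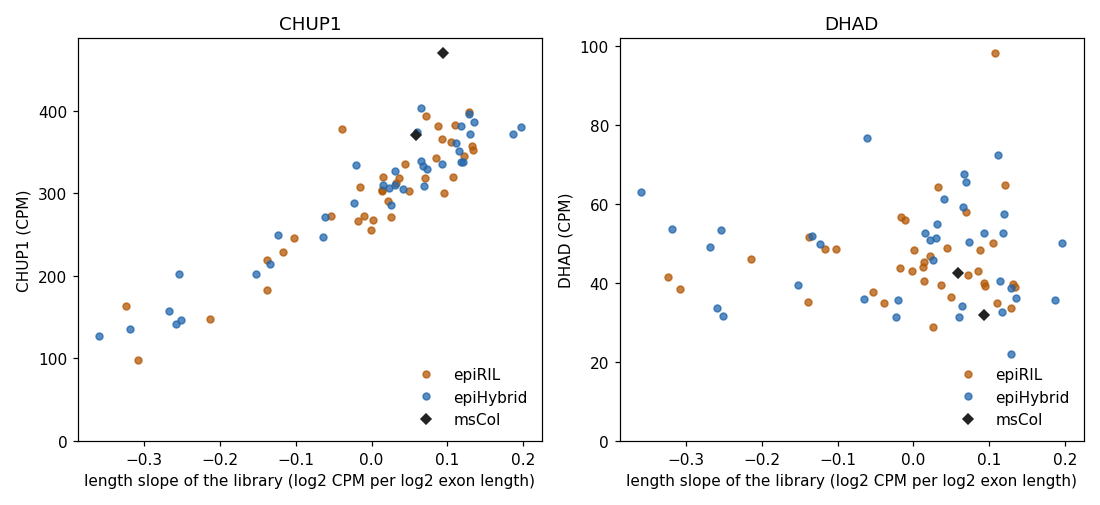
Level of CHUP1 (left) and DHAD (right) in CPM (y axis, from 0) against the length slope of each library (x axis), for epiRILs, epiHybrids and msCol; each point is a library. CHUP1 rises along the slope in both groups (r = 0.911 and 0.962), and DHAD does not (r = 0.108 and -0.0778).

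The divergence of CHUP1 had a median of -12.8% (-18.1% without msCol 12 and -6.84% without msCol 16) and ran from -65.4% in family 310 to 19.5% in family 539. It was negative in 29 families, and the epiHybrid was below both parents in 18, between them in 18 and above both in 0. Its divergence had r = 0.893 with the length slope of the epiHybrid. The epiHybrid followed its father with r = 0.384 (rho = 0.267, slope 0.44 ± 0.18). On log2(CPM + 1) this r was 0.405, and 0.550 with the length slope removed.

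Of 11 other genes of chloroplast movement, all were kept and none was called. Their median difference from msCol was -0.31 in epiRILs and -0.34 in epiHybrids, from fits without the length slope as a covariate. KAC1, a kinesin-like protein of actin-based chloroplast movement, was the closest to CHUP1 on the list (picked after its values were seen), with r = 0.966 and 0.950. The median r of the list with CHUP1 was 0.802 in epiRILs and 0.855 in epiHybrids, 10 of 11 genes being above 0 in each group beside 45.6% and 44.3% of all genes. With the length slope removed the medians were 0.532 and 0.166, and the r of KAC1 was 0.780 and 0.508.

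CYP71B26 had nearly equal mean levels in all 3 groups and the highest r between father and epiHybrid of the candidates. The msCol libraries held 90.0 and 91.1 CPM. In the epiRILs the lowest level was 62.2 (epiRIL 50), the median 88.8 and the highest 144 CPM (epiRIL 158). In the epiHybrids the lowest was 65.5 (epiHybrid 310), the median 89.2 and the highest 141 CPM (epiHybrid 158). Families lay on either side of msCol: 20 epiRILs were below both libraries and 15 above both. The fitted differences were 0.00 ± 0.19 for epiRILs against msCol (adjusted p = 0.997), 0.00 ± 0.19 for epiHybrids against msCol (adjusted p = 0.999) and -0.01 ± 0.04 for epiHybrids against fathers (adjusted p = 0.966).

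The epiHybrid followed its father in CYP71B26 with r = 0.538 and a slope of 0.57 ± 0.15, at percentile 96.2 of the r of all genes. This rests in part on family 158, whose father and epiHybrid were both the highest: rho was 0.402, and r was 0.331 without the fathers 158 and 454. The absolute difference between epiHybrid and own father averaged 12.7 CPM, against 18.4 CPM to the fathers of other families. It was smaller than the epiHybrid's mean difference to those other fathers in 27 of 36 families. For the other candidates this count ran from 19 (CLSY4) to 25 (CHUP1), and over all genes it was not computed. Divergence ran from -25.5% in family 419 to 41.3% in family 368, with a median of -2.75%. Of 35 other CYP71B genes in RefSeq, 20 were kept and none was called. Their r with CYP71B26 was above 0 for 18 of 20 in epiRILs (median 0.394) and 16 of 20 in epiHybrids (median 0.471), beside 53.2% and 52.8% of all genes. CYP71B4, picked after its values were seen, had r = 0.815 and 0.638.

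**Figure D4:**
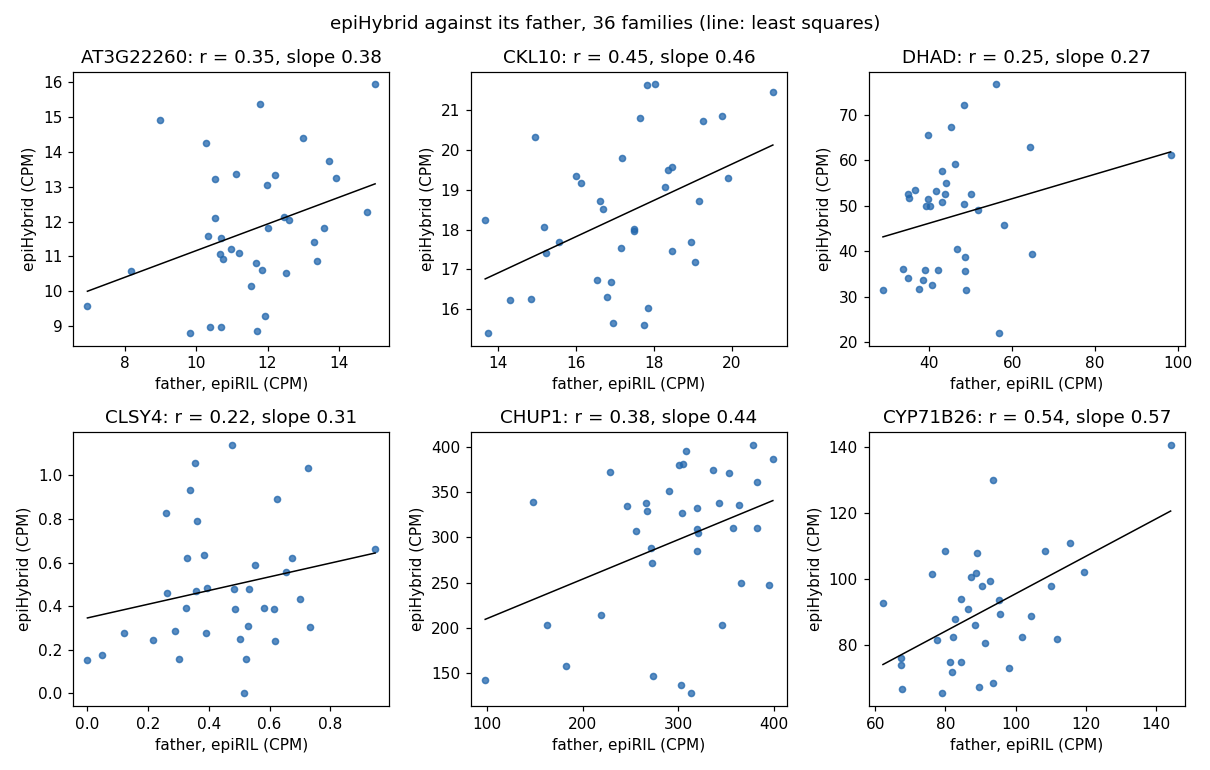
Level in the epiHybrid (y axis, CPM) against the level in its father (x axis, CPM) for each candidate over 36 families, with the least-squares line. The slope is 0.57 for CYP71B26, 0.46 for CKL10 and 0.44 for CHUP1, and 0.27 for DHAD.

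CKL10 varied least of the candidates, and its epiHybrids were more often above than below their fathers. The msCol libraries held 15.5 and 20.4 CPM. In the epiRILs the lowest level was 13.7 (epiRIL 539), the median 17.3 and the highest 21.1 CPM (epiRIL 426). In the epiHybrids the lowest was 15.4 (epiHybrid 379), the median 18.2 and the highest 21.7 CPM (epiHybrid 241). The epiHybrid was above its father in 26 of 36 families. The difference was 0.10 ± 0.03 on the log2 scale with an adjusted p of 0.0952 by edgeR, which misses the threshold. DESeq2 gave an adjusted p of 0.0397, edgeR without families 340 and 368 gave 0.0308, and edgeR with the length slope as a covariate gave 0.0401. The adjusted p of edgeR was 0.0876 with RLE size factors, 0.105 with the stricter filter on low counts, 0.170 without a filter and 0.295 without the family block.

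Against msCol the sign of CKL10 depended on which of the 2 libraries was used. The difference was -0.06 ± 0.11 in epiRILs (adjusted p = 0.856) and 0.03 ± 0.11 in epiHybrids (adjusted p = 0.921), and in epiRILs it was -0.25 without msCol 12 and 0.15 without msCol 16. The divergence of CKL10 ran from -12.6% in family 340 to 23.7% in family 462, with a median of 5.12% (-1.95% without msCol 12 and 13.1% without msCol 16), and its SD over families, 9.24%, was at percentile 3.68 of all genes. The epiHybrid was above both parents in 19 families. It followed the father with r = 0.446 (rho = 0.414, slope 0.46 ± 0.16), at percentile 90.4 of all genes. Of 12 other casein kinase 1-like genes all were kept and none was called, with differences between epiHybrids and fathers from -0.06 to 0.04 on the log2 scale. Their r with CKL10 was above 0 for 11 of 12 in epiRILs (median 0.274) and 10 of 12 in epiHybrids (median 0.332). The share of all genes above 0 was 50.0% and 51.0%. With the length slope removed the medians were 0.127 and 0.152.

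AT3G22260 was the second lowest candidate per kilobase and differed little between groups on average. The msCol libraries held 11.5 and 13.5 CPM. In the epiRILs the lowest level was 6.94 (epiRIL 50), the median 11.7 and the highest 15.02 CPM (epiRIL 340). In the epiHybrids the lowest was 8.80 (epiHybrid 54), the median 11.6 and the highest 15.9 CPM (epiHybrid 340). The groups overlap, with 16 epiRILs and 17 epiHybrids below both msCol libraries. The fitted difference was -0.11 ± 0.16 for epiRILs against msCol (adjusted p = 0.817), -0.08 ± 0.16 for epiHybrids against msCol (adjusted p = 0.857) and 0.02 ± 0.04 for epiHybrids against fathers (adjusted p = 0.905).

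The divergence of AT3G22260 had a median of -3.89% (-7.54% without msCol 12 and 0.065% without msCol 16) and ran from -26.7% in family 424 to 38.9% in family 79. The epiHybrid was below both parents in 17 families, above both in 10 and between them in 9. It followed its father with r = 0.347 (rho = 0.335, slope 0.38 ± 0.18), and with r = 0.270 without the fathers 50 and 310. Of 10 other genes on a list of OTU-type cysteine proteases, all were kept and none was called. Their differences between epiHybrids and fathers ran from -0.09 to 0.06 on the log2 scale. Their r with AT3G22260 was above 0 for 7 of 10 in each group, beside 50.4% and 50.5% of all genes. It ran from -0.607 to 0.561 in epiRILs (median 0.207) and from -0.282 to 0.552 in epiHybrids (median 0.0711). With the length slope removed the medians were 0.289 and 0.258.

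Among the 15 pairs of candidates, DHAD and AT3G22260 had the largest absolute r over epiRILs, and they ran in opposite directions. Their r was -0.830 over the 36 epiRILs (rho = -0.735) and -0.653 over the 36 epiHybrids (rho = -0.677). Over epiRILs, DHAD had the lowest r with AT3G22260 of all 19382 other genes kept, while over epiHybrids 3.49% of genes had a lower one. Seen from DHAD, 0.851% of genes had a lower r than AT3G22260 over epiRILs and 7.08% over epiHybrids. Without the epiHybrids 340 and 368, r was -0.795 over epiHybrids, and with the length slope removed it was -0.831 and -0.687. The genes lie 0.775 Mb apart.

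DHAD also ran opposite to CYP71B26, with r = -0.695 over epiRILs and -0.653 over epiHybrids (rho = -0.717), the latter as large as for AT3G22260. Some libraries were extreme in more than 1 of these genes. EpiRIL 50 was the highest in DHAD (98.2 CPM) and the lowest in both AT3G22260 (6.94) and CYP71B26 (62.2). EpiHybrid 54 was the highest in DHAD (76.8 CPM), the lowest in AT3G22260 (8.80) and the second lowest in CYP71B26 (67.0). At the other end, epiRIL 158 was the second lowest in DHAD (33.5 CPM) and the highest in CYP71B26 (144). Others were not: epiHybrid 426, the lowest in DHAD (21.9 CPM), was at rank 5 from the top in AT3G22260 (14.2) and at rank 9 in CYP71B26 (101.5). Without the 2 libraries farthest from the median of DHAD, r of DHAD and AT3G22260 was -0.736 over epiRILs.

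**Figure D5:**
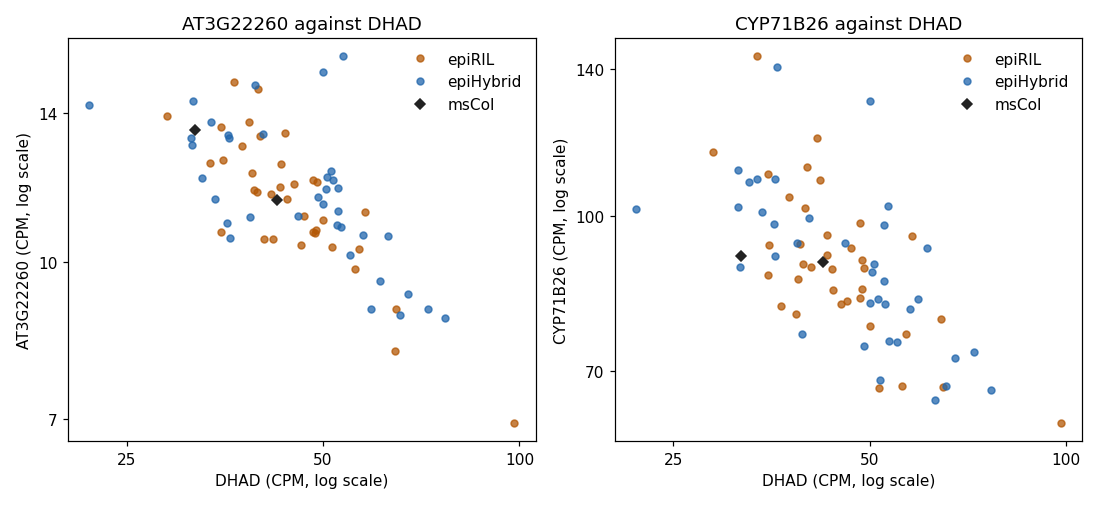
Level of AT3G22260 (left) and CYP71B26 (right) against that of DHAD, in CPM on log axes, in epiRILs, epiHybrids and msCol; each point is a library. Both fall as DHAD rises, with r of log2(CPM + 1) of -0.830 and -0.653 for AT3G22260 and -0.695 and -0.653 for CYP71B26 in epiRILs and epiHybrids.

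The other relations among candidates were weaker. AT3G22260 and CYP71B26 had r = 0.577 over epiRILs and 0.410 over epiHybrids. CKL10 and CYP71B26 had r = 0.228 and 0.537, and CKL10 and DHAD ran opposite with r = -0.230 and -0.529. CKL10 and CHUP1 had r = 0.550 and 0.421, and 0.348 over epiRILs with the length slope removed. CLSY4 and CHUP1 had r = 0.513 and 0.596, which became 0.204 and -0.0632 with the length slope removed. AT3G22260 and CLSY4 had r = -0.0982 over epiRILs and -0.603 over epiHybrids, and the difference between these groups was not tested. All these points share libraries and a chromosome, and no p is given.

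The genes most like each candidate were taken as those with the highest r of log2(CPM + 1) over the 36 epiRILs, and r over the 36 epiHybrids is given second. For DHAD they were AT3G51870, a mitochondrial substrate carrier family protein (0.921, 0.824), and AT5G60390, an elongation factor Tu family protein (0.913, 0.783). For AT3G22260 they were ATMDAR2, an oxidoreductase family protein (0.868, 0.614), and ERD14, a dehydrin (0.865, 0.720). For CYP71B26 they were AT1G57590 (0.857, 0.814), and HB-7, a homeobox protein (0.830, 0.847).

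For CHUP1 they were AT3G05270, a filament-like protein (0.970, 0.974), and AT5G13590, an uncharacterised protein (0.969, 0.975). For CLSY4 they were CPK15, a calcium-dependent protein kinase (0.770, 0.496), and AT3G44050 (0.752, 0.734). For CKL10 they were AT5G06440, a polyketide cyclase and lipid transport family protein (0.703, 0.449), and WRKY3, a WRKY DNA-binding protein (0.690, 0.362). With the length slope removed, AT3G22260 kept its pair of closest genes, CLSY4 kept AT3G44050, and both were replaced for the other candidates, for CHUP1 by CIPK20 (0.878, 0.591) and AT5G25630 (0.855, 0.353) and for DHAD by AT2G05220 (0.948, 0.781) and PAB8 (0.945, 0.819).

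The 15 other candidates of the study linked to chromosome 3 gave a setting for these values. All were kept, and none was called in any of the 3 comparisons. Their median absolute divergence ran from 6.99% to 34.3%, beside 7.29% (CKL10) to 48.6% (CLSY4) for the 6 genes described here. Their r between father and epiHybrid ran from -0.122 to 0.409 with a median of 0.274, beside 0.225 (CLSY4) to 0.538 (CYP71B26) and a median of 0.365.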

How the data were processed

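The authors deposited raw read counts per gene: reads were trimmed with Trim Galore, aligned to TAIR10 with TopHat2 and counted with featureCounts (versions, strand use and multi-mapping: not given in the sources used here). All 74 libraries were used, and columns of no sample numbered 0. As in the study, a gene entered if 2 or more libraries reached 1 CPM (19383 genes, 99.94% of counts), followed by TMM normalisation. For epiHybrids against fathers, edgeR 4.0.16 (R 4.3.3) was used (quasi-likelihood, family as a block), and each group was set against msCol by contrasts over 74 libraries without a block. Tests were two-sided with Benjamini-Hochberg adjustment over all genes kept. The SE came from the fold change and its F statistic.

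Divergence was (epiHybrid − mid-parent)/mid-parent in percent, with the mean of both msCol libraries as mother, since the labels do not say which line mothered which epiHybrid. The r between father and epiHybrid is on the CPM scale, unless log2(CPM + 1) is named or the length slope is removed. Other r of expression levels are on log2(CPM + 1), also with the length slope removed. Pairing comes from parentage: deviations of an epiHybrid and its own father correlated at 0.424 ± 0.277 (SD, n = 36 families), above 0.1 in 30 families, against -0.00922 for other fathers.

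Alternatives were DESeq2 1.42.0, RLE size factors, no filter, 1 CPM in 36 libraries, the length slope as a covariate, no block, and left-out libraries. The fits were tested on simulated data. The members and gene lists were chosen with earlier results of these data known. The plan was to name, per list, up to 4 genes called in any comparison, else a close paralogue. The 2 genes most like each candidate were also to be named. By this rule AT2G31810 was named as called and CLSY3 as a paralogue, and no paralogue was named for the other lists. AT3G58610, IMD3, OMR1, BCAT2, KAC1 and CYP71B4 were added after their values were seen. TAIR10.1 annotation, with 32548 identifiers matched, gave positions and names.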

Additional observations from a re-analysis of the deposited data

How the results depend on the processing

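Of 306 alternative values, 261 were classed as the same, by rules that differed by kind of result. Fitted differences had to keep their sign and side of the threshold, whatever their size. Counts of genes called had to stay within a set factor. Divergences had to stay within their SD over families, and r within its approximate error. A divergence could change sign and count as the same. The median of CKL10 went from 5.12% to -1.95% without msCol 12. The count of genes called was 254 for epiHybrids against fathers, 533 for epiRILs against msCol and 355 for epiHybrids against msCol. With the length slope as a covariate these counts were 399, 1016 and 728. Without the family block the first was 165, and the block changed no call of a candidate. Without families 340 and 368 the counts against msCol were 896 and 732, with only the groups compared 1093 and 178, and with DESeq2 the last was 615. Leaving out 1 msCol library gave 128 to 220 for epiRILs and 85 to 126 for epiHybrids.

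CKL10 passed the threshold between epiHybrids and fathers with DESeq2 (0.10), with the length slope (0.10) and without families 340 and 368 (0.11 on the log2 scale). CHUP1 turned positive there with the length slope (0.016) and without these families (0.0058). Uncalled differences close to 0 changed sign. Against msCol, for epiRILs, CYP71B26 was -0.0015 with DESeq2, -0.0015 with RLE and -0.0086 with the strict filter. For epiHybrids it was 0.033 with the length slope. Without 1 msCol library, epiRILs gave -0.22 to 0.0099 for AT3G22260, -0.25 to 0.15 for CKL10 and -0.0050 to 0.014 for CYP71B26. epiHybrids gave -0.19 to 0.033 for AT3G22260, -0.15 to 0.25 for CKL10 and -0.011 to 0.0077 for CYP71B26.

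The r between father and epiHybrid moved for CHUP1 to 0.550 with the length slope removed, which also changed the scale to log2(CPM + 1). For CYP71B26 it moved to 0.402 as rho and 0.331 without the 2 farthest fathers. The r of CLSY4 and CHUP1 over epiHybrids reversed to -0.0632 with the length slope removed. The last alternatives, on relations among genes, were chosen after seeing the data. The cause of these changes was not tested. With 2 msCol libraries, differences from the mother have wide errors, and CLSY4 is limited by its depth.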
